A study of Rattus norvegicus with 8 samples.

Results

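Cannabinoids act on proteins other than the CB1 receptor, and the genes described here encode 10 of them, chosen by name: the fatty acid binding proteins Fabp3, Fabp5 and Fabp7, the nuclear receptors Ppara, Ppard and Pparg, the ion channels Trpv1 and Trpv2, and the receptors Gpr18 and Adora2a. A site of a gene was every row of the files with its symbol. Of the 10 genes, 8 had a row, with 14 of the 98356 polyadenylation sites and 8 of the 18003 gene symbols in the files. Gpr18 and Adora2a had no row under these symbols and were not analysed here.

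Fatty acid binding proteins are small cytosolic carriers that move fatty acids, the endocannabinoid anandamide and plant cannabinoids through the water of the cell, towards enzymes that break them down or towards the nucleus. PPARs are nuclear receptors that pair with RXR proteins on DNA and switch on genes of fatty acid use when a lipid binds them. TRPV channels are cation channels of the membrane, of which Trpv1 is opened by capsaicin, heat and anandamide. In the brain, Fabp7 is known from astrocytes and radial glia, Fabp3 from neurons and Fabp5 from several cell types.

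In WTTS-Seq (whole transcriptome termini site sequencing) only the end of a transcript that bears the poly(A) tail is sequenced, so a read stands for 1 transcript end and levels of different genes can be set side by side without division by transcript length. Hypothalamic RNA was taken from 8 adult male Long-Evans rats without any transgene or deletion, with 1 library per rat. In 4 rats (replicates 1, 2, 3 and 5) vaporized cannabis plant matter (CPM) was given in a single brief session, and 4 air-treated controls (replicates 1, 2, 3 and 4) sat in the same apparatus with an empty vaporizer; tissue was taken an hour after exposure, during which no food was given. The question is whether this exposure moved the transcript ends of the genes above.

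Depth ran from 1159811 to 3706778 reads per library, and air control replicate 4 had the fewest in its group, as did cannabis replicate 1 with 1919709. These libraries also deviated from their group means in the same way, with a correlation of 0.49 across gene totals, the highest of the 16 pairs of a control and a cannabis library. Air control replicate 2, with 1941129 reads, was near cannabis replicate 1 in depth, and their deviations correlated at -0.15. Of 12 hypothalamic marker genes, Npy had no row and 11 had sites, among them Avp, Oxt, Pomc, Agrp, Hcrt and Pmch. Their sums did not overlap, with 3269 to 5627 normalized counts in controls and 7368 to 9467 in exposed rats, and 2 of the 11 genes, the neurohypophysial hormone genes Avp and Oxt, were higher at P under 0.01 in limma (adjusted P = 0.999 for both), beside 0.278% of all symbols. These were also the most abundant of the 11, with means of 1952 and 4934 for Avp and 596 and 1193 for Oxt in controls and exposed rats. Of the 11 log2 differences, 9 were above 0 and 2 below. The groups overlapped for Oxt, and its P in limma was 0.0144 without air control replicate 2, 0.0114 without cannabis replicate 2, 0.0155 without the mean-variance trend and 0.0190 with a block for the replicate number. The part of this difference in the values below was not tested. Pituitary markers, mainly Cga, summed to between 126 and 821 normalized counts in controls and between 199 and 703 in exposed rats, and Gh1 and Prl had no row. Choroid plexus markers stayed low, between 13.7 and 45.2 normalized counts over all libraries, and Kl and Otx2 had no row.

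The 3 lipid carriers were the most abundant of these genes and the nuclear receptors and channels were rare. Fabp5 had a mean of 126 normalized counts per library (reads scaled by the size factor of each library), and 16.6% of all gene symbols had a higher mean. Fabp3 followed with 66.6 and Fabp7 with 46.2 normalized counts. The other genes had from 7.31 normalized counts for Ppard to 15.2 for Trpv2, and 73.2% and 59.1% of the symbols were above these. Between neighbours in the order of levels, which was set from the same libraries and so has no test, Fabp5 was above Fabp3, Fabp7 above Trpv2 and Ppara above Trpv1 in 8 of 8 libraries. Fabp3 was above Fabp7 in 6 of 8 libraries. Trpv2 and Ppara, Trpv1 and Pparg, and Pparg and Ppard changed places between libraries, with the first of each pair higher in 4, 5 and 4 of the 8.

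**Figure D1:**
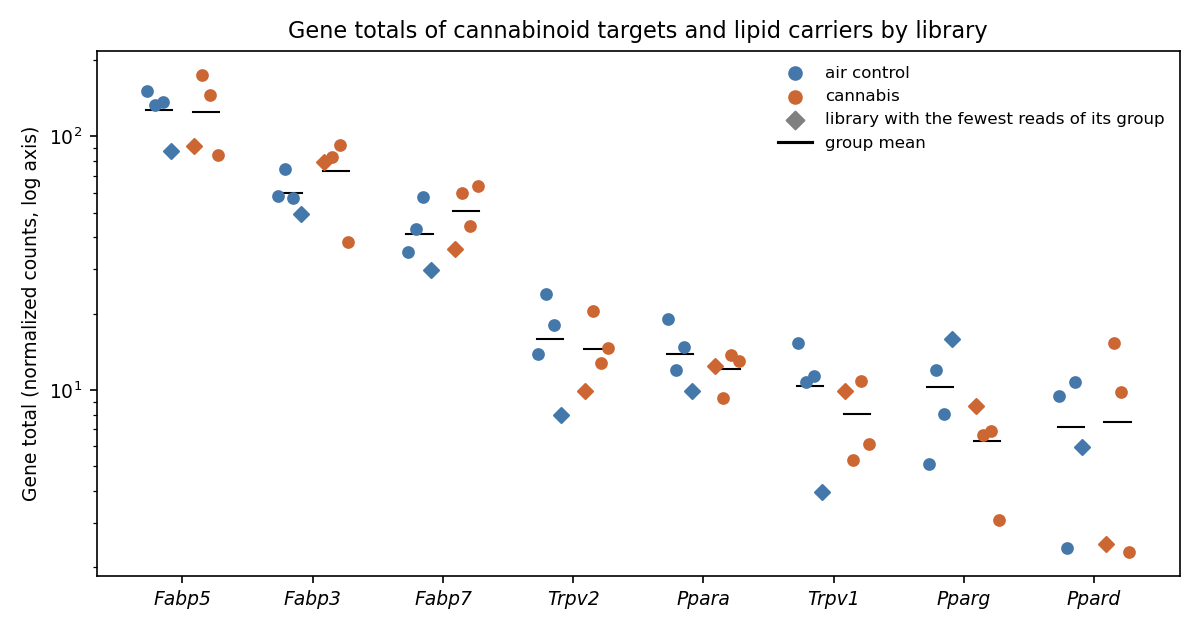
Sum of the normalized counts over all sites of each gene (y axis, log scale) in the 4 air control and 4 cannabis libraries, with group means as lines; diamonds mark the library with the fewest reads in each group. The points of both groups overlap for each of the 8 genes, with Fabp5 between 84.5 and 175 and Ppard between 2.30 and 15.3.

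No gene of the set passed the test between cannabis-exposed rats and controls. In the limma fit of the totals of all 18003 symbols, 0.278% had P under 0.01, the threshold of the study, and 0 of the 8 genes did. At P under 0.05 the numbers were 2.41% of all symbols and again 0 of the 8. The groups overlapped in all 8 genes, where 1.98% of all symbols had groups that did not overlap. At P under 0.01 limma called 0 of the 14 sites, beside 0.381% of all sites, and at P under 0.05 again 0, beside 3.03%, while edgeR and DESeq2 on the recovered reads also gave 0 at P under 0.01 for sites and for totals. The size of the 8 differences went from -0.59 for Pparg to 0.30 for Fabp7 on the scale of log2(normalized count + 1), which understates the change of genes with low counts. Their median was -0.11, with 6 below and 2 above 0, beside a median of 0.05 over all symbols. A P above the threshold does not show that levels were equal, and the 95% intervals below give the differences that the data still allow.

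**Figure D2:**
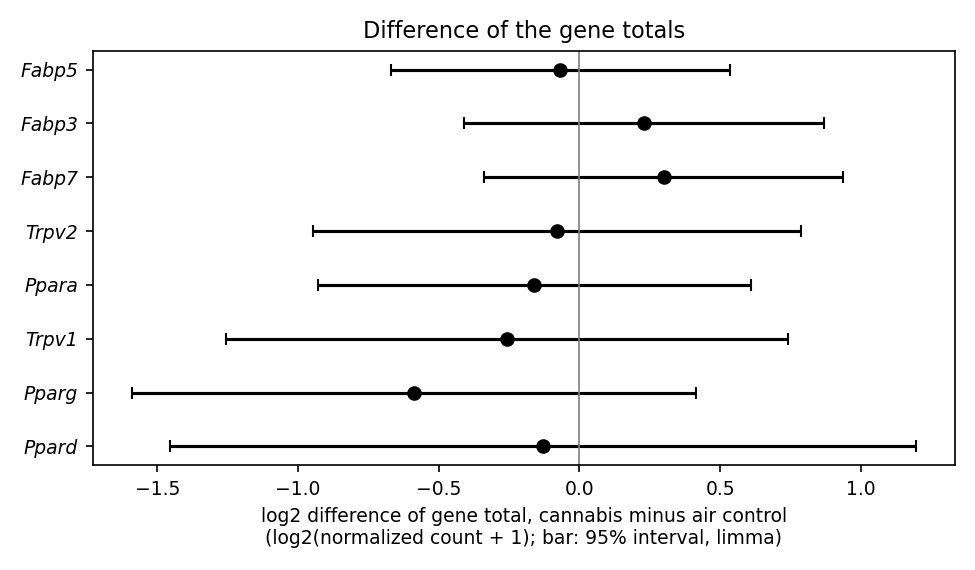
Difference of the gene total, cannabis minus air control, on the scale of log2(normalized count + 1) (x axis), with 95% intervals from limma. Every interval holds 0, and they are narrowest for Fabp5 (-0.67 to 0.53) and widest for Ppard (-1.45 to 1.19).

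Fabp5 encodes the epidermal fatty acid binding protein. Its total was 151, 133, 137 and 87.4 normalized counts in air control replicates 1 to 4, and 91.9, 175, 146 and 84.5 in cannabis replicates 1, 2, 3 and 5. One control and a pair of cannabis libraries were low, between 84.5 and 91.9, and the other libraries had at least 133, so that the spread inside each group was larger than the difference between the groups. The means were 127 ± 27.4 in controls and 124 ± 43.6 in exposed rats (SD, n = 4), a log2 difference of -0.07 (standard error 0.28, 95% interval -0.67 to 0.53, P = 0.814 and adjusted P = 0.999 from limma; exact permutation test, two-sided, P = 0.914). As a fold this interval runs from 0.629 to 1.45. The sign of the small difference turned without air control replicate 1 (0.02), without cannabis replicate 1 (0.05) or without cannabis replicate 5 (0.095).

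The highest total of Fabp5 was 2.08 times its lowest over the 8 libraries, beside 2.41 times for Fabp3 and 2.14 times for Fabp7. The symbols whose totals followed Fabp5 most closely over the 8 libraries, of 6103 symbols with a mean of at least 50 normalized counts, were Ankh, Dnaja1 and Mrps25, with Pearson's r of 0.98 for each. Ankh, a membrane protein of pyrophosphate export, went from 23.8 in cannabis replicate 5 to 91.0 in cannabis replicate 2, and was low in the same 3 libraries as Fabp5. Dnaja1, a co-chaperone, and Mrps25, a mitochondrial ribosomal protein, were low there too. These correlations describe 8 libraries that differ in depth and are the highest of 6103, and no P is given for them.

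Fabp5 had a main and a minor transcript end in the files, and their use differed between libraries of the same group. The main site had 148, 132, 136 and 55.6 normalized counts in air control replicates 1 to 4, and 79.5, 174, 137 and 83.0 in cannabis replicates 1, 2, 3 and 5. The log2 difference of the main site was 0.02 (95% interval -0.76 to 0.81 from limma). The minor site had 2.92, 1.20, 1.34 and 31.8 in the controls, and 12.4, 1.33, 8.86 and 1.54 in the cannabis-exposed rats, a log2 difference of 0.06 (95% interval -1.57 to 1.68). It was high in the library of each group with the fewest reads, where the main site was low, and also raised in cannabis replicate 3. Of the Fabp5 reads of air control replicate 4, 16 of 44 were on the minor site (36.4%, 95% Wilson interval 23.8 to 51.1, for counting error only), where the other controls had at most 1.94%. Cannabis replicate 1 had 10 of 74 there (13.5%, interval 7.51 to 23.1) and cannabis replicate 3 had 9 of 148 (6.08%, interval 3.23 to 11.2). Air control replicate 2, with nearly the depth of cannabis replicate 1, had 1 of 111 there (0.901%). A link between depth and this share was not tested.

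The share of the main Fabp5 site was 90.0% ± 17.6 in controls and 94.5% ± 5.79 in exposed rats (SD, n = 4; exact permutation test, two-sided, P = 0.8286, also after adjustment over 2 shares tested), and the groups overlapped. Over 1473 symbols with exactly 2 sites and at least 10 reads in each library, the minor site took 4.57% of the reads in air control replicate 4 and 4.09% in cannabis replicate 1, beside 4.19% to 4.76% in the other libraries. Counted by symbol, the highest minor share was in air control replicate 4 for 19.4% of 1467 symbols, in air control replicate 1 for 15.7% and in cannabis replicate 1 for 13.7%, and in each of the other libraries for 7.98% to 11.9%, where equal libraries would each have 12.5%. Depth was not equal, and shares from fewer reads scatter more by counting, so the distance from 12.5% cannot show a different use of sites. This comparison was added after the shares had been seen. Fabp5 reads are uncertain in one respect, since RefSeq lists pseudogenes of it (Fabp5-ps2 and Fabp5-ps3), and whether mapping divided reads between them was not tested. The table of site positions and classes was at hand only in part, without these sites, so their positions and classes were not analysed here.

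**Figure D3:**
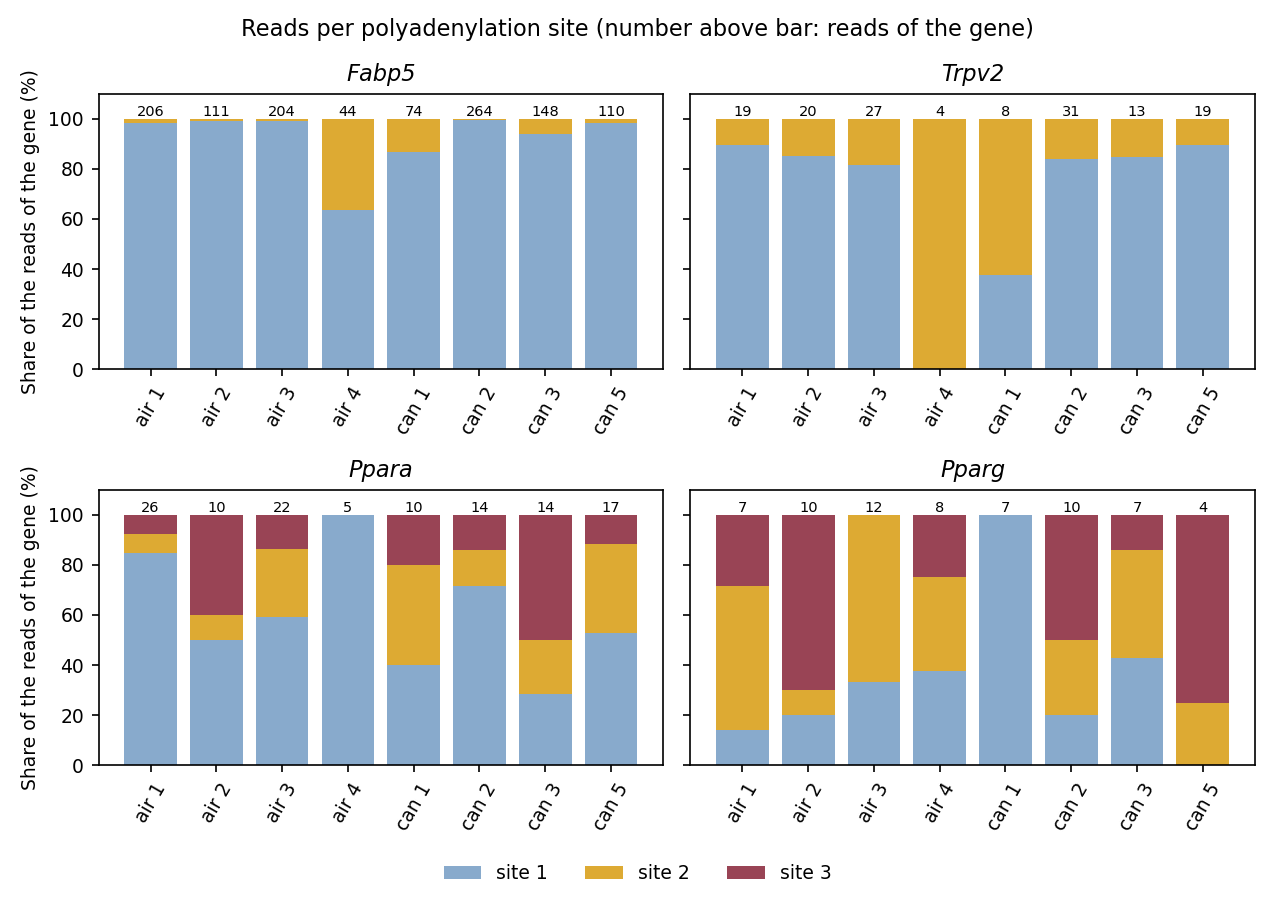
Share of the reads of Fabp5, Trpv2, Ppara and Pparg on each of their sites (y axis, percent) in the 8 libraries (air, air control; can, cannabis), with the number of reads of the gene above each bar. The minor site of Fabp5 reaches 36.4% and that of Trpv2 100% in air control replicate 4, which had 44 and 4 reads of these genes.

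Fabp3, the heart-type carrier that is also found in neurons, had 1 site. It had 58.5, 74.2, 57.1 and 49.6 normalized counts in air control replicates 1 to 4, and 79.5, 83.0, 92.5 and 38.4 in cannabis replicates 1, 2, 3 and 5. In 3 of the 4 cannabis libraries Fabp3 was above every control, and in the fourth it was below every control. The log2 difference was 0.23 (standard error 0.30, 95% interval -0.41 to 0.87, P = 0.451 and adjusted P = 0.999 from limma; exact permutation test, P = 0.457). With 1 library left out the value ran from 0.095, without cannabis replicate 3, to 0.51, without cannabis replicate 5, and was 0.15 without air control replicate 4 or cannabis replicate 2. None of these had P under 0.01 in limma.

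Fabp7, the carrier of astrocytes and radial glia, had 1 site. It had 35.1, 43.1, 57.7 and 29.8 normalized counts in the controls, and 36.0, 59.8, 44.3 and 63.7 in the cannabis-exposed rats in the same order. The highest values were in a pair of cannabis libraries, and control replicate 3 lay between them and the rest. The means were 41.4 ± 12.2 and 51.0 ± 13.0 (SD, n = 4), a log2 difference of 0.30 (standard error 0.30, 95% interval -0.34 to 0.94, P = 0.330 from limma; exact permutation test, P = 0.257). With 1 library left out it ran from 0.16, without air control replicate 4, to 0.47, without air control replicate 3, and was 0.45 without cannabis replicate 1 and 0.18 without cannabis replicate 5. In the fit blocked by replicate number it was 0.04. Of the 10 astrocyte markers, 0 had P under 0.05 in limma, beside 2.41% of all symbols. The sum of these markers ran from 8190 to 10487 normalized counts in controls and from 9553 to 11648 in exposed rats. The 7 markers of tanycytes and ependyma summed to between 224 and 310 in controls and between 187 and 384 in exposed rats. In bulk tissue, fewer cells of a type and less RNA per cell cannot be told apart, and the part of these cells in the values of Fabp7 was not tested.

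Endothelial markers summed to between 110 and 120 normalized counts in controls and between 136 and 139 in exposed rats, so their sums did not overlap. No single marker of the 6 with a row passed P under 0.05 in limma, beside 2.41% of all symbols. Most of the sum was Flt1, a VEGF receptor, with 71.0 ± 7.32 and 95.7 ± 12.7 normalized counts (SD, n = 4). Its groups overlapped, with 77.9 in air control replicate 3 and 77.1 in cannabis replicate 2. Of the 6 log2 differences, 4 were above 0 and 2 below, Kdr at -0.01 and Pecam1 at -0.67. The mean of Cldn5 was 6.25 in controls and 4.32 in exposed rats. The defining markers Cdh5 and Cldn5 were at 0 in 3 libraries and 1 library. The part of these cells in the values of the carriers was not tested.

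Other carriers of the family and its surroundings did not pass the test either. Of 13 further lipid carriers, 6 had a row and 0 had P under 0.05 in limma, beside 2.41% of all symbols. Of their differences, 5 were above 0 and 1 below, with a median of 0.30. Scp2, the sterol carrier protein, and Dbi, the acyl-CoA binding protein, were the most abundant. Scp2 had 159, 314, 258 and 51.6 normalized counts in the controls and 142, 327, 298 and 213 in the cannabis-exposed rats, with its lowest value in air control replicate 4. Dbi was lowest in the same library, at 25.8, and had from 59.6 to 311 in the cannabis-exposed rats. Fabp9, which neighbours Fabp5, Pmp2 and Fabp4 on the rat genome of RefSeq (GRCr8), had 53.0 ± 6.99 normalized counts in controls and 65.8 ± 35.8 in exposed rats (SD, n = 4). The higher mean rested on cannabis replicate 5 with 118, beside 55.9, 37.9 and 51.2 in cannabis replicates 1, 2 and 3. Pmp2 and Fabp4 had no row. The smallest P of this list was that of Crabp2, a retinoic acid carrier, with 8.61 ± 2.62 and 3.91 ± 3.16 normalized counts (SD, n = 4). In limma its P was 0.0621.

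Ppara, the receptor that switches on fatty acid oxidation, was the most abundant PPAR. Its total was 19.0, 11.97, 14.8 and 9.93 normalized counts in air control replicates 1 to 4, and 12.4, 9.30, 13.8 and 13.1 in cannabis replicates 1, 2, 3 and 5. The highest total was 2.04 times the lowest, on 5 to 26 reads per library, and the groups overlapped. The log2 difference was -0.16 (standard error 0.36, 95% interval -0.93 to 0.61, P = 0.662 from limma; exact permutation test, P = 0.486), and ran from -0.30 to -0.007 with 1 library left out. Ppara had 3 sites, of which the main one had a mean of 10.2 ± 4.27 normalized counts in controls and 5.61 ± 1.41 in exposed rats (SD, n = 4). Its log2 difference of -0.71 was not past the threshold (standard error 0.50, 95% interval -1.75 to 0.33, P = 0.170 and adjusted P = 1.00 from limma; exact permutation test, P = 0.0857). The other sites had differences of 0.88 and 0.48, the other way, from at most 7 reads in a library. The main site held 73.4% ± 23.0 of the Ppara reads in controls and 48.2% ± 18.4 in exposed rats (SD, n = 4), overlapping between groups, on 5 to 26 reads of the gene in a library.

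Pparg, the receptor of fat cell formation, had a mean lower in exposed rats and was among the genes with the fewest reads. Its total was 5.12, 11.97, 8.06 and 15.9 normalized counts in the controls, and 8.69, 6.64, 6.89 and 3.07 in the cannabis-exposed rats, from 4 to 12 reads per library. The log2 difference was -0.59 (standard error 0.47, 95% interval -1.59 to 0.41, P = 0.228 from limma; exact permutation test, P = 0.229). It ran from -0.85 without air control replicate 1 to -0.33 without cannabis replicate 5, and was -0.36 without air control replicate 4 and -0.10 with a block for the replicate number. These reads were divided over 3 sites with 20 to 23 reads each over all libraries, and no site led in every library. The site with the highest mean had all 7 Pparg reads of cannabis replicate 1 and 0 of the 4 reads of cannabis replicate 5, and its log2 difference was -0.19 (P = 0.789 from limma; exact permutation test, P = 0.8286), although its mean was 2.94 normalized counts in controls and 3.24 in exposed rats. The second site had means of 3.86 and 1.43 and a log2 difference of -1.05 (P = 0.118 from limma; exact permutation test, P = 0.143), and the third had means of 3.45 and 1.65 and a difference of -0.50.

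Ppard, the receptor with the widest tissue range, had 1 site. It had 9.50, 2.39, 10.7 and 5.96 normalized counts in the controls, and 2.48, 15.3, 9.84 and 2.30 in the cannabis-exposed rats. Both groups held libraries with few normalized counts (2.39, and 2.48 and 2.30) and libraries with many (10.7, and 15.3), and the means were 7.15 ± 3.76 and 7.48 ± 6.28 (SD, n = 4). The log2 difference was -0.13, opposite in sign to the difference of these means (standard error 0.62, 95% interval -1.45 to 1.19, P = 0.836 from limma; exact permutation test, P = 0.886). Leaving out air control replicate 1 or 3, or cannabis replicate 1 or 5, turned its sign, and without cannabis replicate 5 the value was 0.21.

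The partners and targets of the PPARs likewise held no gene with P under 0.05 in limma, beside 2.41% of all symbols. Of 14 partners and coregulators, 13 had a row, with 7 differences above 0, 6 below and a median of 0.03. The corepressor Ncor1 had 308 ± 143 normalized counts in controls and 282 ± 134 in exposed rats, and the coactivator Ncoa1 had 231 ± 51.7 and 234 ± 16.1 (SD, n = 4). The heterodimer partners were present as Rxrb and Rxrg, and Rxra had no row.

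Of 29 PPAR target genes, 23 had a row, with 15 differences above 0, 8 below and a median of 0.10. Fads1, a fatty acid desaturase, was the highest with 1116 ± 303 and 1063 ± 322 normalized counts (SD, n = 4). Fads2, another desaturase, had 327 ± 65.6 and 352 ± 73.5 (SD, n = 4). The smallest P of the list was that of Plin2, a coat protein of lipid droplets, with 19.9 ± 4.73 and 29.8 ± 4.99 (SD, n = 4). Its log2 difference was 0.57 (95% interval -0.08 to 1.23, adjusted P = 0.999 from limma).

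Trpv1, the capsaicin receptor, had 1 site with 2 to 21 reads per library. It had 15.4, 10.8, 11.4 and 3.97 normalized counts in the controls, and 9.93, 5.31, 10.8 and 6.14 in the cannabis-exposed rats. The lowest control library was below every cannabis library and the highest was above every one, with a log2 difference of -0.26 (standard error 0.46, 95% interval -1.25 to 0.74, P = 0.589 from limma; exact permutation test, P = 0.571). With 1 library left out it ran from -0.61, without air control replicate 4, to -0.04, without air control replicate 1, and was -0.10 without cannabis replicate 2. None of these values had P under 0.01 in limma. In these libraries 1 read was worth from 0.664 to 1.99 normalized counts, so that 3.97 stands for 2 reads.

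Trpv2, a channel that cannabidiol opens, was the more abundant of the pair. Its total was 13.9, 23.9, 18.1 and 7.94 normalized counts in the controls, and 9.93, 20.6, 12.8 and 14.6 in the cannabis-exposed rats. The library with the fewest reads was the lowest of its group in both groups. The log2 difference was -0.08 (standard error 0.40, 95% interval -0.95 to 0.79, P = 0.844 from limma; exact permutation test, P = 0.8286).

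The minor Trpv2 site, like that of Fabp5, had its highest shares in air control replicate 4 and cannabis replicate 1, here on 4 and 8 reads. The main site had 12.4, 20.4, 14.8 and 0 normalized counts in air control replicates 1 to 4, and 3.73, 17.3, 10.8 and 13.1 in cannabis replicates 1, 2, 3 and 5. All 4 Trpv2 reads of air control replicate 4 and 5 of the 8 reads of cannabis replicate 1 (62.5%, 95% Wilson interval 30.6 to 86.3) were on the minor site, against 10.5% to 18.5% in the other libraries. Among these, air control replicate 2, with nearly the depth of cannabis replicate 1, had 15%. With 0 of 4 reads, the main site could still hold up to 49.0% of the Trpv2 reads of air control replicate 4 by the 95% Wilson interval. Over the groups, its share was 64.0% ± 42.8 in controls and 73.9% ± 24.4 in exposed rats (SD, n = 4; exact permutation test, P = 0.714, and 0.8286 adjusted over 2 shares). The log2 difference of the main site, 0.42 (P = 0.582 from limma; exact permutation test, P = 0.857), rested on that library and was -0.60 without it. That of the minor site was -0.23 (95% interval -1.45 to 1.00).

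The related channels were as rare. Of 6 further TRPV and thermosensitive channels, 5 had a row, all with differences above 0 and a median of 0.26, beside 0.05 for all symbols. Of them, 0 had P under 0.05 in limma, beside 2.41% of all symbols. Trpa1, the receptor of mustard oil, was the highest with 9.48 ± 3.14 normalized counts in controls and 10.8 ± 1.10 in exposed rats, followed by Trpv6 with 7.491 ± 2.1997 and 9.19 ± 3.14, and the cold receptor Trpm8 with 5.14 ± 2.97 and 6.36 ± 1.07 (SD, n = 4).

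Around the receptors Adora2a and Gpr18, which had no row, the genes of adenosine and of other proposed cannabinoid receptors held 0 with P under 0.05 in limma, beside 2.41% of all symbols. Of 14 adenosine receptors, transporters and enzymes, 12 had a row, 6 above and 6 below 0, with a median difference of 0.00. Adk, the kinase that removes adenosine, had 130 ± 59.7 normalized counts in controls and 94.4 ± 19.4 in exposed rats, the Adora1 receptor had 100.4 ± 22.0 and 92.5 ± 14.4, and the ecto-nucleotidase Entpd2 had 75.3 ± 22.8 and 80.6 ± 31.9 (SD, n = 4). Adora2a is known as a gene of the striatum, and the 7 striatal markers had rows that summed to between 223 and 304 in controls and between 204 and 368 in exposed rats, with Drd1 between 1.46 and 5.96 normalized counts. Of these markers 1, the dopamine receptor Drd2, had P under 0.05 in limma, beside 2.41% of all symbols, and was lower in exposed rats with 42.3 ± 16.002 and 22.6 ± 6.39 normalized counts (SD, n = 4). Its log2 difference was -0.85 (adjusted P = 0.999 from limma), and its P was 0.0758 without air control replicate 4, 0.0692 without cannabis replicate 3 and 0.110 with a block for the replicate number.

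Of 15 other receptors and channels proposed to bind cannabinoids, 12 had a row, with 7 differences above 0, 5 below and a median of 0.01. The nicotinic subunit Chrna7 had 112 ± 17.7 normalized counts in controls and 119.9 ± 48.2 in exposed rats, the potassium channel Kcnk3 had 83.4 ± 15.5 and 79.9 ± 29.0, and the calcium channel Cacna1g had 65.4 ± 8.61 and 65.9 ± 11.2 (SD, n = 4). Gpr55, Gpr119 and Gpr3 had no row. Over the 6 lists together, 71 of 91 genes had a row, 45 had a difference above 0, and 0 had P under 0.01 beside the 0.278% of all symbols. The median difference over all symbols was itself above 0, at 0.05. It was 0.004 with TMM scaling, 0.005 in edgeR and 0.0004 in DESeq2. The direction counts of the lists were not made again with these, while the totals of the 8 genes described first kept their signs in each.

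**Figure D4:**
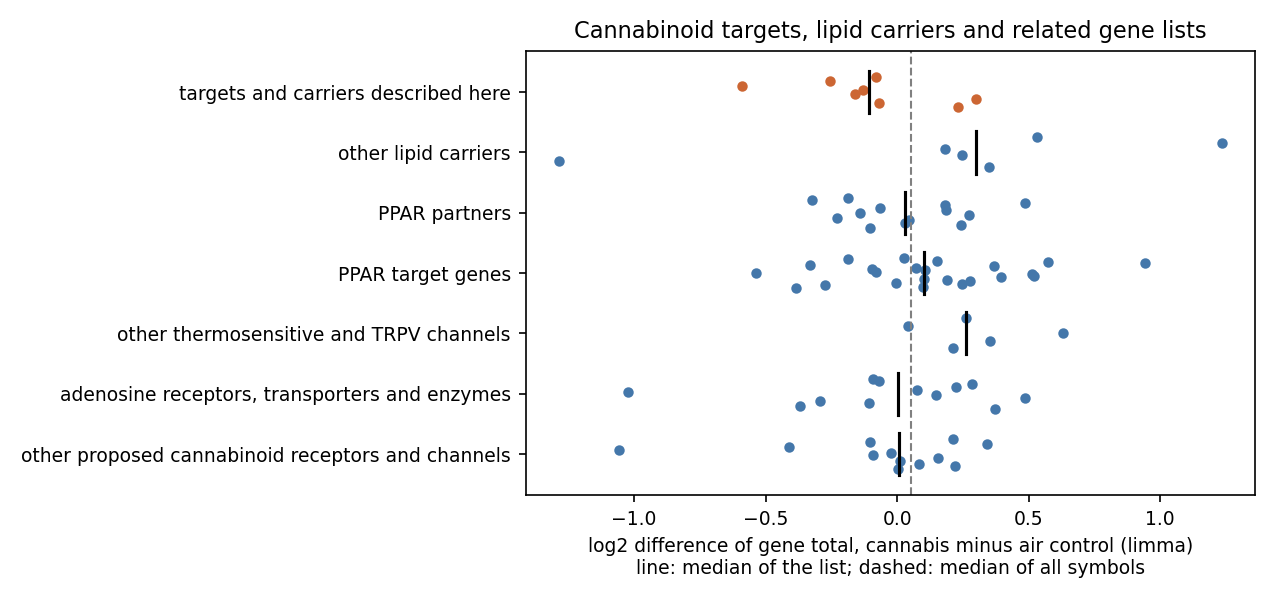
Difference of the gene total, cannabis minus air control, on the log2 scale (x axis) for each gene with a row, in the set described here and in 6 related lists; black lines are list medians and the dashed line is the median of all symbols, 0.05. The medians lie between -0.11 and 0.30, and none of the points passed P under 0.05 in limma, beside 2.41% of all symbols.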

How the data were processed

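Hypothalamic RNA of 4 cannabis-exposed and 4 air-treated rats was sequenced by WTTS-Seq, with groups and replicate numbers taken from the sample titles. The authors used the FASTX Toolkit to remove poor reads, cut the T stretch from read starts, aligned with TMAP against Rnor_6.0, grouped nearby ends as sites, kept sites with at least 16 reads over all libraries and named genes with Cuffcompare. The deposited signal is the normalized count of a site, that is its reads over a scaling factor of each library from DESeq2, and no libraries were pooled.

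The files were joined by row order, with equal symbols in each row. Reads were recovered by dividing by the smallest value of a library, and 100% of the values came out whole to within 0.001 reads. Totals were sums over the sites of a symbol, and 34043 sites without a symbol were left out of totals. Totals and sites were tested with limma 3.58.1 in R 4.3.3 (lmFit, eBayes with a mean-variance trend) on log2(normalized count + 1), without covariates, with Benjamini-Hochberg adjustment over all symbols or all sites. Count tests on the recovered reads, as alternatives, used edgeR 4.0.16, which called 54 totals and 517 sites at P under 0.01, and DESeq2 1.42.0, which called 76 and 310. Single values had exact permutation tests of 4 against 4 libraries, whose smallest P is 0.0286. The fits were tested on simulated data. Sums, shares and exact tests were computed with scipy 1.17.1, pandas 2.3.3 and numpy 2.4.6 in Python 3.11.15, and plots with matplotlib 3.10.9.

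The genes, lists and tests were chosen with earlier results of these data known. The rule named all sites of the genes with a row, of each gene with several sites the one with the highest mean in full, and from each related list the 3 genes with the highest mean, except that some of these are not reported here; Crabp2 and Plin2 were named after their values were seen, as were further list genes named without a test. The alternatives tried were a block for the replicate number, leaving out single libraries, a pseudocount of 0.5 or 5, a filter at a mean of 10, no trend, TMM scaling, the count tests and P under 0.05; leaving out the library with the fewest reads of each group together was added after seeing the data. Depth limits the precision, as a median site had 34 reads over the 8 libraries, and so does the spread between libraries. The variance of gene totals inside the groups, over that of counting alone, was 11.2 for Fabp5, 5.59 for Fabp3, 3.92 for Ppard and 3.51 for Fabp7. For the other genes of the set it ran from 0.694 for Ppara to 1.75 for Trpv2. Intervals of shares cover counting error only.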

Additional observations from a re-analysis of the deposited data

Results flagged for a closer look

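Values of a single library lay far from the other 3 of its group (by Dixon's ratio) in 7 of 56 groups of values examined. Chance flags about 1 in 20 groups of normal values, a rate that does not carry over to percentages of few reads. Of the 7, 6 are 3 pairs of shares that add to 100% and so count the same reads. They concern Fabp5 and Trpv2 only. In the controls, the minor Fabp5 site had 31.78 normalized counts in air control replicate 4, beside 1.197 to 2.924 in the others, which made 36.36% of the Fabp5 reads there and left 63.64% on the main site. For Trpv2, the same library had 0% of the reads on the main site and 100% on the minor site, from 4 reads. In the cannabis group, cannabis replicate 1 had 37.5% of its Trpv2 reads on the main and 62.5% on the minor site, from 8 reads.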

How the results depend on the processing

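The counts of 0 for totals, for sites, for the related lists and for shares that do not overlap stayed at 0 under every alternative run. For the 8 genes described first, without the related lists, the smallest P of any setting was 0.0677 for a total and 0.0534 for a site. Of 199 alternative values of single totals and sites, 172 kept their direction, 27 turned it and 0 crossed P of 0.01. Leaving out 1 library in turn gave log2 differences from -0.25 to 0.095 for the Fabp5 total, -0.56 to 0.21 for Ppard, -0.36 to 0.14 for Trpv2, -0.30 to 0.19 for the main Fabp5 site, -0.74 to 0.35 for the main Pparg site and -0.60 to 0.88 for the main Trpv2 site. With the replicate number as a block, which leaves air control replicate 4 and cannabis replicate 5 without a partner, the value was 0.18 for the Ppard total, -0.16 for the main Fabp5 site, 0.68 for that of Pparg and -0.72 for that of Trpv2, and the Fabp7 and Pparg totals kept their signs at 0.04 and -0.10. The labels do not say whether rats with the same number were paired. The 3 same-numbered pairs correlated between -0.23 and 0.09 in their deviations, too few values to decide it. Without the library with the fewest reads of each group, Ppard was at 0.16 and the main Fabp5 and Trpv2 sites at -0.14 and -0.19. In edgeR and DESeq2 the main Pparg site was at 0.18 and 0.17 and the main Trpv2 site at -0.11 in both. The cause of these turns was not tested.

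Over all symbols, 50 totals had P under 0.01, 18 higher and 32 lower, with TMM scaling 51, 12 higher and 39 lower. The number was 24 with the block, 29 with a mean of at least 10, 76 in DESeq2 and 98 without the trend, and from 30 to 90 with 1 library left out. For sites it was 375, and 229 with the block, 44 with a mean of at least 10, and from 227 to 617 with 1 library left out. The filter on the mean left no value for Ppard, Pparg and Trpv1 or for the main Ppara and Pparg sites. Low read counts limit the precision for the PPARs and channels, and for Ppard the spread between libraries does too.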
